A study of Rattus norvegicus with 180 samples.

Results

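The rat miRNAs from rno-miR-3541 to rno-miR-3596 are a block of late entries in the miRNA catalogue. The rule that picked them uses names and no measured value, and takes every ID on the array of the form rno-miR-N with N in that range, whatever its letter or arm, leaving out the starred IDs and rno-miR-3584-5p. This gave 75 of the 717 miRNA IDs on the array, from 60 hairpins. The arrays were 1-colour Agilent miRNA arrays, which measure the mature strands in total RNA by their brightness after labelling with the dye Cy3. All rats were male Sprague-Dawley rats, an outbred laboratory stock, at 10 weeks of age. Animals No. 4, 5 and 6 were perfused with saline before their organs were taken and gave 1 array per rat for each of 55 organs. Animals No. 1, 2 and 3 had no perfusion and gave 15 arrays, from liver, kidney, lung, heart atrium and heart interventricular septum. The organs were taken under ether anaesthesia, and no other treatment is given in the labels. The intestine samples were mucosa scraped from the wall, the liver samples came from its left lateral lobe, and the rest were pieces of tissue or whole organs. Since all were mixtures of cells, more cells of a type and more of the miRNA in each cell cannot be told apart.

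A miRNA is a short RNA cut from 1 of the arms of a hairpin, written -5p or -3p, and it pairs with target messages mainly through its seed, bases 2 to 8. The arms of a hairpin can reach very different levels. Late catalogue numbers come largely from sequencing of small RNAs, and they hold many strands that are scarce or found in few organs. Some of these hairpins are annotated on the DNA strand opposite a long-known miRNA, so that the mature strands of the pair are complements of each other.

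The depth of the arrays differed widely. The number of detected miRNAs on an array ran from 86 to 244 with a median of 161.5, where detected means that over 50% of the spots of a miRNA were well above background. The 75th percentile used for scaling, taken over the 37 miRNAs detected on all 180 arrays, lay at 121, 90.5 and 68.0 in the pancreas of rats 4, 5 and 6, and between 336.0 and 6343 on all other arrays. Scaled signals of pancreas were therefore multiplied by 17.5 to 31.1, against at most 6.30 elsewhere, and unscaled signals are given with each pair called in pancreas. Why the pancreas arrays were dim was not tested. Among 7 negative control sequences, 1 of 1260 values was called detected, against 552 of the 13500 values of the 75 miRNAs (4.09%). The organ labels were borne out by 20 miRNAs known to mark organs, which in 21 of 21 checks were higher in the labelled organ, by 4.22 to 13.26 on the log2 scale. Mesenteric lymph node of rat 5 and cecum of rat 4 stood apart from the other arrays of their organs in the members detected. On the first, 6 of the 75 miRNAs were detected that neither of the other rats showed there, and on the second 5. Over all tested miRNAs, other arrays differed from their organ by as much, such as cervical lymph node of rat 4 (11 miRNAs over 4-fold above the mean log2 signal of the other rats), optic nerve of rat 4 (10 above) and parotid gland of rat 4 (5 above and 8 below).

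Of the 75 miRNAs, 22 were detected on at least 1 array (29.3%), compared with 403 of the 642 other miRNAs of the array (62.8%). In at least 1 organ, 13 of the 75 were detected in all 3 perfused rats (17.3%), compared with 332 of the others (51.7%). None was detected on all 180 arrays, which 37 of the others were. Among the others, 74.9% of the unstarred IDs and 42.5% of the starred IDs, the minor arms, were detected at least once. The detected members fell into 3 kinds. miR-3573-3p was detected on 136 arrays and miR-3588 on 133. miR-3559-5p was detected on 65, miR-3558-3p on 54, miR-3593-3p on 49, miR-3564 on 31 and miR-3580-3p on 21. The rest reached 11 arrays or fewer, namely miR-3593-5p (11), miR-3563-3p (9), miR-3562 and miR-3549 (8 each), miR-3582 and miR-3585-5p (7 each), and 9 weak members on 1 to 3 arrays each. Thymus held the most, with 7 members detected in all 3 rats, followed by pancreas and cecum with 5 each. Over all miRNAs of the array, 143 were detected in all 3 rats in thymus, 82 in pancreas and 154 in cecum. For 15 hairpins both arms were on the array, and both were detected for 2 of them (miR-3573 and miR-3593), 1 arm for 8 and neither for 5.

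The mature sequences below are those of the members that were detected in all 3 rats of an organ and that have an entry in the RefSeq miRNA table (build GRCr8), 5′ to 3′, with the seed in capitals. They are shown because the organ patterns described further on are theirs. Of the 75 IDs, 65 matched that table. miR-3549, miR-3563-3p and miR-3593-5p did not and are given by name only.
miR-3588: uCACAAGUuagggucucaggga
miR-3558-3p: aCUGUGGAggguuucuaugu
miR-3580-3p: uGACUAGGguaguaugaguaga
miR-3585-5p: uUCACAAGaaggugucuuucau
miR-3559-5p: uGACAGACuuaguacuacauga
miR-3564: uGGGAAAUgcaaagagggaag
miR-3593-3p: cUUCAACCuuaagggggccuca
miR-3562: uUGGGGCAguggcuggauggga
miR-3573-3p: uUCCUAACucugcccccucccau
miR-3582: cAGCUGGUugaaggggaccaa
None of these 10 seeds was shared with another of the 10 or with any other rat miRNA of the table.

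By position, miR-3588 lies at chr11:29732588-29732609 on the minus strand, within the span of the long non-coding RNA LOC103693508. miR-3558-3p (chr6:12935330-12935349, minus) lies within Ttc7a, which encodes a scaffold of a lipid kinase complex. miR-3559-5p (chrX:73660193-73660214, minus) lies within Zdhhc15, a palmitoyltransferase gene. miR-3564 (chr19:66782276-66782296, plus) lies within Klhdc4, and miR-3573-3p (chrX:68299322-68299344, plus) within Efnb1, which encodes the membrane ligand ephrin B1. miR-3562 (chr10:105848002-105848023, minus) lies within Cep131, a centrosomal protein gene, next to the hairpin of miR-3594. miR-3593-3p (chr6:78987770-78987791, minus) lies in no annotated gene. miR-3580-3p (chrX:150486426-150486447, minus) has the hairpins Mir871 and Mir465 within 10000 bases on its own strand, and miR-3585-5p (chrX:151706773-151706794, minus) has Mir201 and Mir547. The gene table gives spans only, so exons and introns were not told apart.

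Strands opposite a known miRNA made up a large share of the block. Of the 65 members with a sequence, 35 were complementary to another rat miRNA over at least 16 bases, and 34 of them lay on the opposite strand of that miRNA. Among these 35, 5 were detected on any array (14.3%), namely miR-3588, miR-3582, miR-3557-3p, miR-3544 and miR-3545-3p. Among the 30 without such a partner, 14 were detected (46.7%). These shares are a description, and no test was run on them. The undetected ones include miR-3591, opposite the liver miRNA miR-122-5p, miR-3596a, opposite let-7a-5p, and miR-3587, opposite miR-29b-3p. The 2 complementary members that were detected in all 3 rats of an organ are printed here with their partners, again with the seeds in capitals, to show the pairing of miR-3588 over 22 bases and of miR-3582 (named miR-133c in RefSeq, at chr18:2157886-2157906, plus) over 21.
miR-3588: uCACAAGUuagggucucaggga
miR-125b-5p: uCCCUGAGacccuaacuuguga
miR-3582: cAGCUGGUugaaggggaccaa
miR-133a-3p: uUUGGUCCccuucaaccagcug

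Which organs hold each miRNA was asked first, since the atlas was built to find organ-specific miRNAs. In a limma fit of all perfused arrays, the log2 signal of each organ was set against the average of the remaining 54. Signals below 10.8, the typical lowest detected signal of an array, were set to that value, so differences against organs without detectable signal depend on this floor. A fold given as "at least" was computed apart from the fit as a ratio of geometric means (from mean log2 signals), with each undetected array of the other organs raised to its own lowest detected signal, and is never larger than the log2 difference would give. Such a fold bounds the effect of undetected arrays only, not that of the scaling. A miRNA and organ pair was called higher where the log2 difference was over 1 and the p-value, adjusted over 345 miRNAs and 55 organs, was under 0.05. Of the 715 pairs of the 13 tested members, 69 were called higher (9.65%), against 14.4% of the pairs of all miRNAs tested. All 13 differed between organs by the F test, as did 99.7% of all miRNAs tested. A miRNA entered the test by being detected in some organ, so nothing is read from that count. The same selection touches the adjusted p of any organ through which a miRNA entered, such as parotid gland for miR-3549, and these values describe the difference only. Of the 69 pairs, 59 were detected in all 3 rats, 7 in 1 or 2, and 3 in none. By organ, 9 members were called higher in pancreas (32.5% of all miRNAs tested were), 6 in thymus (19.4%), 5 in bone marrow (21.4%), 5 in testis (27.2%), 4 in duodenum (22.6%), 4 in jejunum (21.4%) and 4 in mesenteric lymph node (14.2%). No member was called higher in any of the 10 nervous system organs except miR-3588 in cerebellum, a call that was lost with slide as a fixed block. Of all miRNAs tested, 7.54% (sciatic nerve) to 31.6% (thalamus) were called higher in these 10 organs. Eyeball, which the paper puts in the nervous system, was not among the 10. There 2 members were called higher, miR-3588 and miR-3558-3p (16.8% of all miRNAs tested were). Across 19 alternative ways of processing, 16 of the 69 pairs were called under every one in which they could be tested, and they belong to 8 members. The map of differences shows all 13 members.

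**Figure D1:**
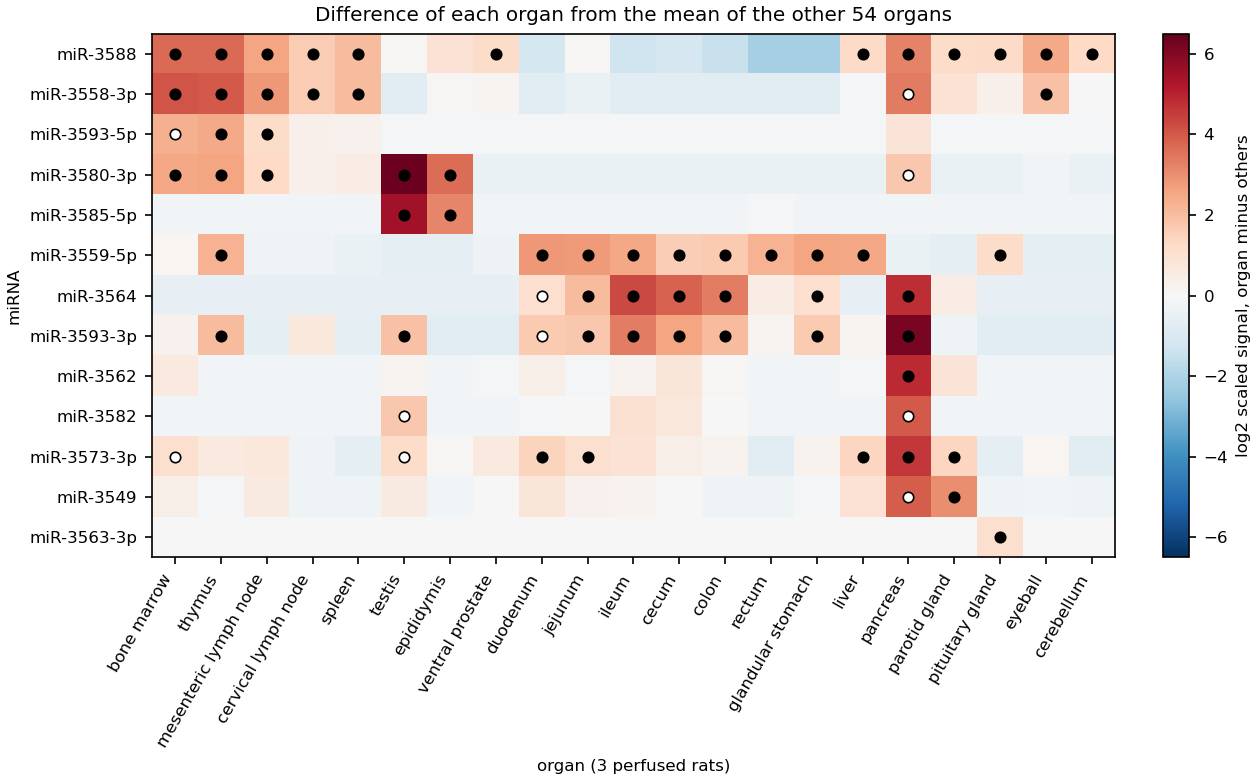
Difference between each organ and the mean of the other 54 organs (log2 scaled signal) for the 13 tested members and the 21 organs with at least 1 pair called higher. Filled dots mark called pairs detected in all 3 rats and open dots called pairs detected in fewer; the largest differences are those of miR-3580-3p in testis (6.39) and miR-3593-3p in pancreas (6.16).

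Blood-forming and lymphoid organs had the highest signals of 3 members, miR-3588, miR-3558-3p and miR-3593-5p. miR-3588 was measured over much of the body, with all 3 rats detected in 32 of 55 organs, yet its bone marrow and thymus levels stood several fold above the mean of the rest. miR-3558-3p had the same leading organs and was detected in far fewer. All 11 arrays on which miR-3593-5p was detected came from these organs. As a set, the 5 lymphoid and blood-forming organs were above the other 50 for all 3 of these and for miR-3580-3p, which is 4 of 13 members, against 15.7% of all miRNAs tested. Over all members, 10 of 78 pairs of a miRNA and an organ set were called higher (12.8%), against 14.6% of the pairs of all miRNAs tested. The standard error (SE) of a set difference measures the spread between rats within an organ, not that between the organs of the set.

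The scaled signal of miR-3588 in bone marrow was 816 in rat 4, 392 in rat 5 and 620.3 in rat 6. In thymus it was 516, 508 and 749.8. The arrays of these organs overlapped, and their means, 609 ± 212 and 591 ± 137 (SD, n = 3), could not be ordered. Both exceeded the other organs, bone marrow by 3.68 ± 0.38 and thymus by 3.67 ± 0.38 (log2 difference ± SE, adjusted p = 1.1e-15 for each). Mesenteric lymph node followed with 286, 269 and 276 (log2 difference 2.58 ± 0.38, adjusted p = 2e-09), eyeball with 252, 259 and 265 (2.48 ± 0.38), spleen with 242, 109 and 281 (2.06 ± 0.38) and cervical lymph node with 178, 80.3 and 224 (1.65 ± 0.38). Eyeball, an organ outside the lymphoid set, thus reached the level of the lymph nodes, with little spread between rats. The calls of spleen (0.76) and cervical lymph node (0.62) were lost with normexp background correction. Cerebellum, at 104, 129 and 119, was the only brain region called higher (1.31 ± 0.38). That call was lost with slide as a fixed block, normexp background correction (0.04) and a higher floor. In pancreas the scaled signals were 328, 332 and 719 (3.22 ± 0.38), from unscaled signals of 18.7, 14.2 and 23.1, which ranked 43rd of the 55 organs. Without scaling the difference turned to −1.06, and the call was also lost with the percentile over all miRNAs. Without scaling, thymus had the highest mean, at 326.

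The partner of miR-3588 across the DNA strands, miR-125b-5p, a miRNA known from brain and blood-forming cells, ranked differently across the organs. Its highest mean was in thalamus, at 8111, 8417 and 7210, overlapping with pectoral spinal cord and optic nerve. In these 3 organs miR-3588 ranked 29th, 30th and 18th of the 55. In bone marrow and thymus, the leading organs of miR-3588, miR-125b-5p ranked 44th and 46th. Over the 55 organ means of log2 signal, Pearson's r between the members of this pair was 0.03. That figure describes 55 organs of the same 3 rats on shared arrays. Levels of different probes cannot be compared, so only the order of organs is given.

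miR-3558-3p reached 384, 153 and 336 in bone marrow and 245, 246 and 280.2 in thymus. These arrays overlapped as well. The log2 differences from the other organs were 4.06 ± 0.23 (adjusted p = 2.5e-33) and 3.99 ± 0.23 (adjusted p = 1.2e-32), and the folds were at least 14.6 and at least 13.8. In mesenteric lymph node the 3 rats lay close together, at 108, 118 and 119 (log2 difference 2.81 ± 0.23), but the call was lost with normexp (0.60). Spleen (101, 35.5 and 87.5), cervical lymph node (68.5, 19.9 and 109) and eyeball (62.4, 53.3 and 70.8) were also called higher. These 3 calls were lost with normexp and with the higher floor, and that of eyeball also with the percentile over all miRNAs. In spleen and cervical lymph node, as for miR-3588, rat 5 was the lowest of the 3. The pair called in pancreas is not a measured level, since miR-3558-3p was well above background in none of the 3 pancreas arrays (unscaled 7.07, 6.74 and 8.28) and the difference turned to −0.54 without scaling.

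miR-3593-5p was detected in all 3 rats only in thymus (78.2, 70.0 and 48.3) and in mesenteric lymph node (22.2, 29.6 and 30.0), and in 2 rats in bone marrow (94.5, 22.9 and 89.2). Every thymus array lay above every mesenteric lymph node array. Thymus was at least 4.25-fold above the other organs (log2 difference 2.46 ± 0.14, adjusted p = 6.4e-33), and mesenteric lymph node at least 1.76-fold (1.19 ± 0.14). Both calls were lost with normexp and with a floor 4 times as high, where the thymus difference was 0.55, and mesenteric lymph node turned to −0.21 with normexp. The 5 lymphoid and blood-forming organs together were above the rest by 2.95 ± 0.18 for miR-3588, 3.15 ± 0.11 for miR-3558-3p, 1.55 ± 0.06 for miR-3580-3p and 1.41 ± 0.06 for miR-3593-5p. miR-331* was the non-member most like miR-3558-3p (r = 0.93 over 55 organ means) and miR-3588 (r = 0.73), and miR-188* the one most like miR-3593-5p (r = 0.97).

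**Figure D2:**
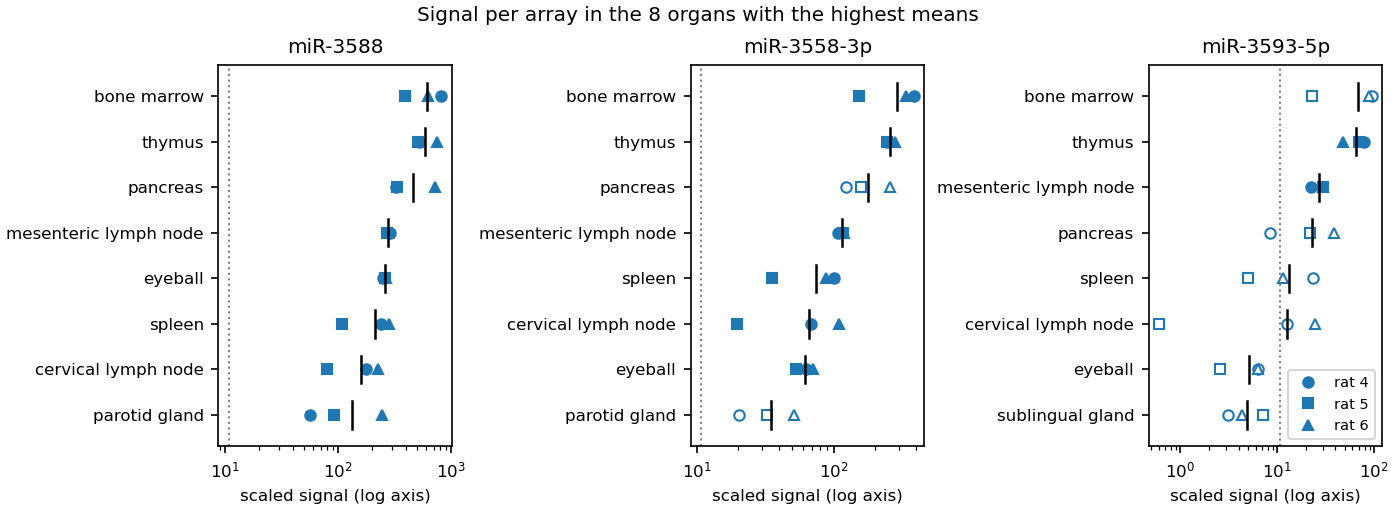
Scaled signal (log axis) of miR-3588, miR-3558-3p and miR-3593-5p on each perfused array of the 8 organs with the highest means. Each symbol is 1 rat, filled where all 3 arrays of the organ were detected, the black bar is the mean, and the dotted line is the floor of 10.8; bone marrow and thymus head all 3 lists.

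Testis and epididymis held the clearest organ pattern of the block. miR-3580-3p and miR-3585-5p, both encoded on the X chromosome beside other hairpins, were highest in testis and next in epididymis, with no overlap between the arrays of these organs. Testis makes sperm and epididymis stores them. miR-3585-5p was detected elsewhere on a single array, of rectum, whereas miR-3580-3p was also found in bone marrow, thymus and mesenteric lymph node.

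In testis miR-3580-3p had scaled signals of 973, 1084 and 1279, and in epididymis of 167, 145 and 203. The testis mean of 1112 ± 155 was 6.48-fold that of epididymis (172 ± 29.6, SD, n = 3). Against the other organs, testis was at least 67.2-fold higher (log2 difference 6.39 ± 0.13, adjusted p = 6.3e-74) and epididymis at least 9.98-fold (3.64 ± 0.13, adjusted p = 2.7e-49). Bone marrow followed at 117, 40.1 and 107.0, thymus at 90.1, 88.3 and 70.0, and mesenteric lymph node at 28.1, 38.6 and 37.4. All 3 were called higher, with log2 differences of 2.52, 2.57 and 1.29 (SE 0.13 each). With a floor 4 times as high all 3 calls were lost, and with normexp those of thymus and mesenteric lymph node were lost, the latter turning to −0.23. Bone marrow and thymus could not be ordered. These are organs in which miR-3593-5p was found too. The pancreas pair of miR-3580-3p was called with no detected array (unscaled 1.69, 1.76 and 2.85), in 12 of 17 settings, and was at −0.33 in the authors' table.

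miR-3585-5p had scaled signals of 596, 425 and 479 in testis and of 95.5, 78.1 and 152 in epididymis. The means were 500.0 ± 87.0 and 108 ± 38.5 (SD, n = 3), a 4.61-fold difference. Testis was at least 32.9-fold above the other organs (log2 difference 5.45 ± 0.05) and epididymis at least 6.74-fold (3.16 ± 0.05). The epididymis call was lost with normexp (0.88). The standard errors of this miRNA are too small to be taken at face value, because nearly all of its other arrays sit at the floor and show no spread. The male reproductive organs as a set of 5, which adds seminal vesicle and the prostate lobes, were called higher for both miRNAs. The call came from testis and epididymis, the other 3 organs of the set being called for neither. Of the non-members, miR-547 had the organ profile most like that of miR-3580-3p (r = 0.84 over 55 organ means) and miR-871* that of miR-3585-5p (r = 1.00, resting on the 3 organs above the floor). Mir547 is the neighbour of the miR-3585 hairpin and Mir871 that of the miR-3580 hairpin.

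**Figure D3:**
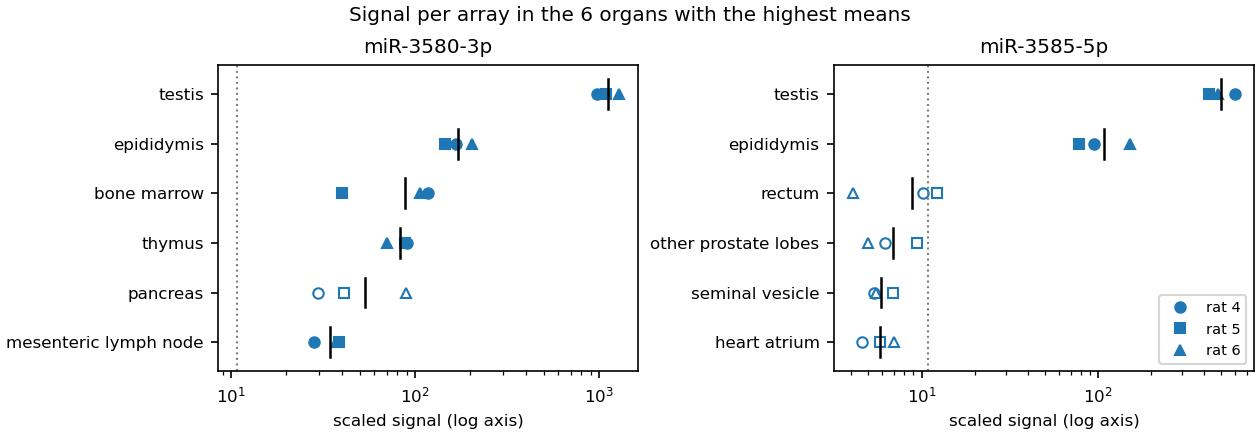
Scaled signal (log axis) of miR-3580-3p and miR-3585-5p on each perfused array of the 6 organs with the highest means. Symbols, bars and the dotted floor are as in the plot for lymphoid organs; testis arrays (425 to 1279) lie above all epididymis arrays (78.1 to 203).

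The digestive tract separated 3 further members. miR-3559-5p had its highest scaled signals in the small intestine, glandular stomach and liver, while miR-3564 and miR-3593-3p were highest in ileum, cecum and colon and, after scaling, in pancreas. All 3 were called higher in the intestine taken as a set of 6 organs, with log2 differences of 2.50 ± 0.05 for miR-3559-5p, 2.77 ± 0.13 for miR-3564 and 2.13 ± 0.08 for miR-3593-3p. These are 3 of the 13 members, near the 18.3% of all miRNAs tested that were called for this set.

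miR-3559-5p had scaled signals of 149, 111 and 84.5 in duodenum and of 123, 117 and 90.2 in jejunum. Glandular stomach (101, 90.5 and 92.6), liver (104, 86.5 and 88.8) and ileum (83.0, 107 and 87.4) overlapped with both, so the first 5 organs could not be ordered. The log2 differences from the other organs ran from 2.80 ± 0.11 in duodenum (adjusted p = 1.4e-45) to 2.51 ± 0.11 in ileum. Rectum, colon, cecum, thymus and pituitary gland were also called higher, with pituitary gland last of the 10 organs at 36.1, 38.3 and 38.7. Before scaling, rectum had the highest signals, at 109, 93.6 and 119, against 38.0, 30.5 and 27.8 in duodenum, so the order within the gut changed with scaling. The liver call was lost without scaling (0.77) and with the higher floor. With normexp and with the higher floor the calls of rectum, colon, cecum, thymus, ileum and glandular stomach were lost too. The pituitary call held in 13 of 18 settings and turned to −0.36 with normexp. The profile most like it among non-members was that of miR-194, a miRNA known from intestinal epithelium and liver (r = 0.86 over 55 organ means).

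miR-3564 varied more between rats. Ileum had 706 in rat 4 but 197 and 177 in rats 5 and 6, whereas cecum had 116 in rat 4 and 257 and 322 in the other rats. Colon spread less, with a mean of 149.7 ± 13.0 (SD, n = 3). The log2 differences were 4.29 ± 0.29 in ileum (adjusted p = 1.2e-26), 3.83 ± 0.29 in cecum (adjusted p = 3.4e-23) and 3.31 ± 0.29 in colon (adjusted p = 2.8e-19), and the folds were at least 16.2, 11.7 and 8.20. Jejunum (133, 38.6 and 48.9) and glandular stomach (44.8, 16.6 and 49.3) were called higher as well, and duodenum with 2 of 3 rats detected. The glandular stomach call held in 10 of 18 settings and turned to −0.13 with the higher floor, the duodenum call held in 11 of 18, and both were lost without rat 4 and without rat 6. The jejunum call was lost with normexp and with the higher floor (0.40), and the colon call with normexp (0.98). In pancreas the scaled signals of miR-3564 were 269.9, 568 and 429, from unscaled signals of 15.4, 24.3 and 13.8. The unscaled signals in cecum were 73.8, 197 and 284. Without scaling the pancreas difference was 0.55 and no longer called, while ileum and cecum were called under every setting.

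miR-3593-3p, the other arm of the hairpin that gave miR-3593-5p, differed from that arm in its organs. Its scaled signals in pancreas were 638, 1929 and 1169, far above the 341, 138 and 91.1 of ileum and the 49.8, 154 and 128 of cecum. On these scaled signals pancreas was at least 62.7-fold above the other organs (log2 difference 6.16 ± 0.19, adjusted p = 4.5e-57). The size depended on the processing. The difference was 4.29 in the authors' table, 3.39 with the percentile over all miRNAs, 4.58 with the higher floor and 6.34 with slide as a fixed block. This pair was the only one of the 9 pancreas calls that held without scaling, with a log2 difference of 2.00, from unscaled signals of 36.3, 82.4 and 37.5. Before scaling, ileum had 158, 60.1 and 51.1 and cecum 31.8, 118 and 113, so that the arrays of the 3 organs overlapped and gave no order. Ileum (log2 difference 3.31 ± 0.19), cecum (2.59 ± 0.19), colon (2.05 ± 0.19) and thymus (2.05 ± 0.19, at 66.7, 86.4 and 56.8) were called higher, as were jejunum, glandular stomach, duodenum and testis. The calls of jejunum, duodenum and testis were lost without scaling, and except for ileum, cecum and pancreas all calls of this miRNA were lost with the higher floor. With normexp the calls of cecum (0.66), colon (0.32), thymus, jejunum and glandular stomach were lost. Thymus was the only organ in which both arms of the hairpin were detected in all 3 rats.

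**Figure D4:**
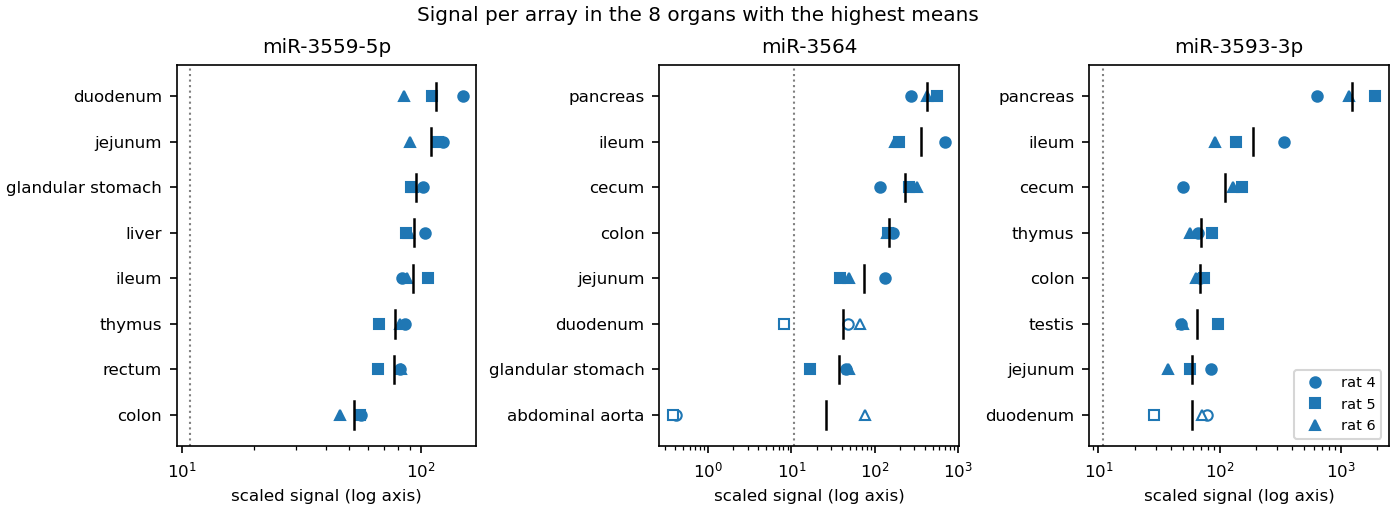
Scaled signal (log axis) of miR-3559-5p, miR-3564 and miR-3593-3p on each perfused array of the 8 organs with the highest means. Symbols, bars and the dotted floor are as in the plot for lymphoid organs; pancreas heads the lists of miR-3564 and miR-3593-3p after scaling by a factor of 17.5 to 31.1, and the 3 rats spread widely in ileum for these 2 miRNAs.

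The profiles of these 2 gut and pancreas miRNAs resembled each other, with r = 0.86 over 55 organ means and 0.80 over the 54 organs without pancreas. Between miR-3562 and miR-3582 the likeness rested more on pancreas, at 0.87 with it and 0.37 without it. Between miR-3559-5p and miR-3593-3p it was 0.54 with pancreas and 0.75 without. Among the non-members, miR-483* was most like miR-3564 (r = 0.95) and miR-211* most like miR-3593-3p (r = 0.97). miR-3558-3p was nearest to miR-3588 among the members, at 0.85 with pancreas and 0.84 without. miR-30b-3p was most like miR-3549 (r = 0.91, but 0.79 without pancreas), although it was detected on no array of the 5 organs where it was highest. miR-3085 was most like miR-3573-3p (r = 0.96), and miR-678 most like miR-3562 (r = 0.95, but 0.65 without pancreas). All of these values describe the same 55 organs on shared arrays, searched over 332 non-members. They compare scaled signals. For miR-3573-3p the scaled signal largely followed the percentile used for scaling, with r = −0.98 over 179 arrays (both as log2). Whether its likeness to miR-3085 holds before scaling was not tested.

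Each array of an organ called higher was also compared with the other organs on its own slide. Slides held mostly neighbouring organs of the same rat, such as tongue to cecum of rat 4. Gut organs were thus compared largely with other gut organs, and slide and organ differences cannot be told apart in this way. A pair not higher there can still be above the remaining organs. Of the 69 pairs, 59 were higher on each of their 3 slides. The 10 that were not were miR-3559-5p in cecum and colon, miR-3564 and miR-3593-3p in duodenum, jejunum and glandular stomach, and miR-3588 in parotid gland and ventral prostate. The lowest value was that of miR-3564 in duodenum, at −2.14 on 1 slide, and miR-3564 in glandular stomach was higher on 0 of 3 slides. All pairs in testis, thymus, bone marrow and ileum were higher on each slide.

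miR-3562 and miR-3582 were near background in most organs and had their highest scaled signals in pancreas. miR-3562 had 273, 379 and 386 there, from unscaled signals of 15.6, 16.2 and 12.4, and was detected in all 3 rats (log2 difference 4.87 ± 0.17, adjusted p = 1.2e-50). Without scaling the difference was 0.63 and was not called. Skin, the second organ with 3 of 3 rats detected, had 39.0, 23.0 and 13.8, and unscaled signals of 53.0, 33.0 and 15.5, the highest mean of any organ. Its log2 difference of 0.91 ± 0.17 was under the minimum of 1, with 1.69 without scaling but −0.40 with normexp and −0.061 with the higher floor. miR-3582 was detected in all 3 rats only in cecum, at 35.7, 15.2 and 14.4 (log2 difference 0.74 ± 0.11, not called). With cecum of rat 4 and mesenteric lymph node of rat 5 both left out, the difference was 0.31. The calls for miR-3582 in pancreas (unscaled 8.52, 10.9 and 5.07) and testis rested on 1 and 0 detected arrays. Its partner miR-133a, a muscle miRNA, was highest in femoris muscle (1958, 2274 and 1481) and lay between 0.23 and 1.97 in cecum, at or below background. The probe sequences of miR-3582 were the least alike of all described members, with r = 0.84 over the organ means. For the other 12, r between the 2 probe sequences ran from 0.89 for miR-3588 to 1.00 for miR-3564.

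miR-3549 and miR-3563-3p were each clearest in a gland. In parotid gland, a salivary gland, miR-3549 had 36.7, 138 and 218, and every one of these arrays was detected. The log2 difference was 3.03 ± 0.19 (adjusted p = 2.7e-29), at least 7.05-fold, and it was called under every setting. Parotid gland was the only organ with all 3 rats detected, so this miRNA entered the test through it. The lowest array, that of rat 4, is the parotid array that differed from the others over all miRNAs, and the call held without rat 4. Unscaled signals were 18.4, 39.6 and 34.6, with the highest mean of any organ, although mesenteric lymph node of rat 5 had the highest single array at 63.7. Pancreas had higher scaled signals (108, 258 and 245) from unscaled signals of 6.15 to 11.0, with 1 of 3 arrays detected. The salivary glands as a set of 3 were called higher for miR-3549 (1.03 ± 0.11), parotid gland being the only one of them with a call.

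miR-3563-3p was measured near its limit. In pituitary gland its scaled signals were 24.0, 20.7 and 23.0 (22.5 ± 1.68, SD, n = 3), and in adrenal gland 19.5, 12.5 and 18.7. The pituitary arrays lay above the adrenal arrays, and in sublingual gland 2 of 3 arrays were detected, at 15.3 to 19.0. Pituitary gland was at least 1.51-fold above the other organs (log2 difference 1.03 ± 0.03), just past the minimum. The call was lost with the authors' table (0.17) with a floor 4 times as high (0) and without rat 4 (0.99), and the sign turned under 3 other settings. The non-member with the most similar profile was the ID miR-377_v15.0 (r = 0.97), again resting on 3 organs above the floor.

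miR-3573-3p was the most often detected member, and its pattern depended on the scaling. After scaling, pancreas stood first at 257, 508 and 528, followed, among organs detected in all 3 rats, by parotid gland (27.4, 47.4 and 77.2), duodenum (54.8, 50.3 and 36.8) and liver (42.1, 49.6 and 47.9). Before scaling, its signal ran only from 7.58 to 25.3 over 179 of the 180 arrays, with a median of 11.6, while the 75th percentile of the same arrays ran from 68.0 to 6343. Over these 179 arrays, which include several organs of each rat, Pearson's r with the log2 percentile was −0.98 for the log2 scaled signal and −0.21 for the log2 unscaled signal. The scaled signal was thus high where the percentile was low. Unscaled signals in pancreas were 14.7, 21.7 and 17.0, and without scaling the pancreas difference was 0.53 and not called. The remaining array, mesenteric lymph node of rat 5, had 169 before and 176 after scaling, against scaled signals of 9.86 and 12.4 in rats 4 and 6. Without scaling none of the 7 organ calls of this miRNA was kept, with differences such as −0.15 in bone marrow and −0.10 in liver. Testis turned to −0.30 with quantile normalization, and jejunum to −0.08 with the higher floor. What part the scaling has in the 7 organs called for this miRNA cannot be told apart from organ differences by these signals.

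**Figure D5:**
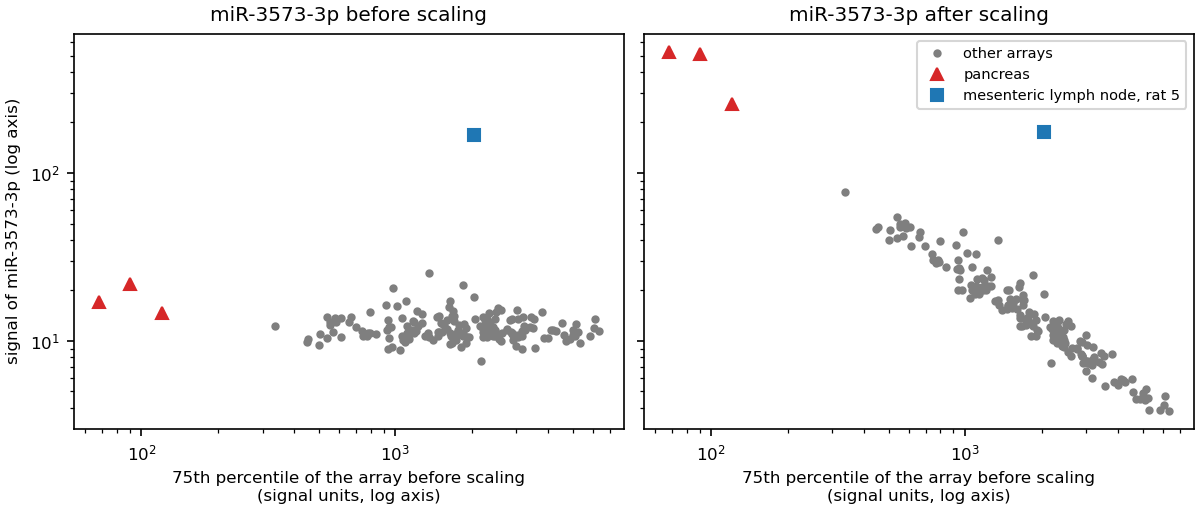
Signal of miR-3573-3p on each of the 180 arrays before (left) and after (right) scaling, against the 75th percentile of the array before scaling (both axes log). Grey dots are arrays of other organs, red triangles pancreas, and the blue square mesenteric lymph node of rat 5; apart from that array the unscaled signal stays between 7.58 and 25.3, while the scaled signal falls as the percentile rises.

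The 9 weak members were detected on 1 to 3 arrays, with never more than 1 array of an organ. Mesenteric lymph node of rat 5 was a detecting array for 5 of them. There miR-3547 had a scaled signal of 120.0, against 3.22 and 3.78 in rats 4 and 6. miR-3544 had 91.4 (4.21 and 5.36 in the other rats), miR-3541 had 52.6 (1.10 and 1.18), miR-3584-3p had 16.9 and miR-3550 had 16.6. miR-3544 was also detected in Harderian gland of rat 6 (29.5). Cecum of rat 4 was the array for miR-3557-3p (47.3, against 2.03 and 1.85), miR-3594-5p (33.4) and miR-3573-5p (18.6). miR-3557-3p was further detected in pancreas of rat 5 (scaled 274, against 157 and 237 not detected in rats 4 and 6) and esophagus of rat 4, miR-3594-5p in ileum of rat 4 (18.3), and miR-3545-3p only in abdominal vein of rat 5 (6.96). No level in an organ is given for these 9, since the detection rule was met in no more than 1 rat of an organ. Brighter arrays can fail that rule. miR-3545-3p had an unscaled signal of 10.4 on its detected array, but its highest was 41.0. Spots of this miRNA were well above background on 17 arrays, and the paper's model-based clustering gave it a separate cluster of arrays. Leaving out the arrays of mesenteric lymph node of rat 5 and cecum of rat 4 kept 69 of the 69 pairs called above.

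The other 53 members were not detected on any array. With the detection call of the scanner software, 28 members instead of 22 were detected, the additions being miR-3546, miR-3551-3p, miR-3554, miR-3563-5p, miR-3568 and miR-3572, on 1 to 6 arrays each. That call also raised miR-3547 from 1 to 91 arrays and miR-3549 from 8 to 75. No level is given for the undetected members, since the detection rule was met on no array. Their spots were not all at background. miR-3546 had spots well above background on 5 arrays and an unscaled signal of up to 39.7. The paper's model-based clustering also gave this miRNA a separate cluster of arrays. For the others, spots at background do not show that a miRNA is absent.

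Perfusion with saline was compared with no perfusion in 5 organs, to see whether blood left in an organ adds to its miRNAs. Of the members, miR-3588, miR-3558-3p, miR-3559-5p and miR-3573-3p were detected often enough to be tested. None of their 20 pairs with an organ was called changed by limma, and none had an unadjusted p under 0.05. Some of these pairs could not show a change, because every array of both conditions lay under the floor. They were miR-3558-3p and miR-3559-5p in heart atrium and heart interventricular septum, and miR-3573-3p in lung. Among all 191 miRNAs tested, 0% of 955 pairs were called, with 34 at an unadjusted p under 0.05. The largest difference was for miR-3588 in heart interventricular septum, with 51.1, 46.1 and 34.7 in the rats without perfusion and 31.6, 31.1 and 34.3 in the perfused rats. These groups did not overlap, although only 2 and 1 of their arrays were detected. This was 1 of the 20 member pairs without overlap, against 47 of 955 pairs of all miRNAs tested. The log2 difference was −0.43 (95% confidence interval −0.93 to 0.07, adjusted p = 1). An exact two-sided permutation test gave p = 0.1, the smallest value that 3 against 3 allows. In liver miR-3588 had 114, 109 and 85.5 without perfusion and 106, 146 and 92.1 with it (log2 difference 0.14, interval −0.36 to 0.64). miR-3559-5p in liver had 87.5, 113 and 88.0 without and 104, 86.5 and 88.8 with perfusion (log2 difference −0.04, interval −0.33 to 0.25). These intervals leave room for changes of the sizes they span, and the tests do not show that the levels were equal. The paper reports that blood-cell miRNAs such as miR-451 were evident without perfusion but not with it. That miRNA was not called changed here.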

How the data were processed

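The study labelled 0.1 ug of total RNA with Cy3 for each of 180 custom Agilent arrays carrying miRBase probes, and the deposited scanner files hold spot intensity (brightness) from Agilent Feature Extraction 10.7.3, named in the submitters' processing notes, after its background subtraction. The authors also deposited a table of intensity scaled to the 75th percentile. Outlier spots (1.63% to 6.42% per array) were dropped, the spots of a miRNA were averaged per probe sequence and then over sequences, the 75th percentile of the 37 always-detected miRNAs was set equal on every array, and values were floored at 10.8. Tests used limma 3.58.1 in R 4.3.3 with Benjamini-Hochberg adjustment, checked on simulated data. Arrays lay on 23 slides, and no spot was saturated. Rat numbers were taken from the titles, and 8 arrays titled rat 5 carry another number in a second label. Residuals of the same rat correlated at 0.05 on average, of different rats at −0.02 and of the same slide at 0.17. The members and the lists were chosen with earlier results of these data known. Members detected in all 3 rats of an organ are described with their arrays, other detected members by level, and non-members only for a most similar profile, a shared seed or a complementary sequence. Alternatives covered scaling, background, table, floor, spot summary, filter, blocks for rat and slide, and leaving out arrays or rats. Sequences are from RefSeq, build GRCr8. The number of rats limits precision.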

Additional observations from a re-analysis of the deposited data

How the results depend on the processing

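The count of members called between organs was 13 in the reported setting, and 21 of 22 tested when miRNAs detected on at least 1 array were admitted, but 2 of 2 when detection on at least 50% of the arrays was asked. That stricter filter left 19 pairs with an organ and 1 with an organ set, because fewer members were tested. The count of 69 pairs fell to 29 with a floor 4 times as high. The count of organ set pairs called was 10 in the reported setting, 4 with that floor and 3 with normexp background correction. Leaving out rats 4, 5 or 6 in turn gave 68 to 73 pairs and 9 to 11 set pairs, with 13 members each time. Rat as a replicate block, slide as a random block, all 180 arrays and the fit without the 8 arrays with 2 rat numbers each kept all 69 pairs; slide as a fixed block kept 64, losing miR-3588 in cerebellum, pituitary gland and ventral prostate and miR-3573-3p in jejunum and parotid gland. Without scaling 45 of the 69 were kept, and 1 of the 9 in pancreas. Normexp kept 36 and added 31 others, so its count of 67 holds many other pairs, and 15 of the 69 pairs turned negative under some setting. The pituitary difference of miR-3563-3p turned to −0.0075 with the percentile over all miRNAs, −0.0048 with quantile normalization and −0.27 with normexp. That of miR-3582 in cecum turned to −0.13 with normexp and −0.040 with the higher floor, and that of miR-3562 in skin to −0.40 and −0.061. The causes were not tested. Normexp used the median spot signal, since the scanner files used here have no mean signal, and this, the fit without mesenteric lymph node of rat 5 and cecum of rat 4, and the organ next after pancreas were chosen after seeing the data. miR-3585-5p was not analysed in the authors' table. Perfusion gave 0 calls under all 17 alternatives, and members detected ranged from 20 to 32 by the rule for spots.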
